A study of Mus musculus with 18 samples.

Results

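The proteasome subunit genes were taken as every gene on the array whose symbol begins with Psma, Psmb, Psmc or Psmd followed by a digit. The rule found 40 genes, represented by 53 of the 41174 probes, and all 40 were among the 22663 genes and unnamed transcripts tested. They fell into 14 constitutive core subunits, 17 subunits of the regulatory cap, the 3 immunoproteasome subunits Psmb8, Psmb9 and Psmb10, 2 tissue-specific core subunits (Psma8 and Psmb11) and 3 chaperones of cap assembly (Psmd5, Psmd9 and Psmd10). Psmc3ip, which also matched, encodes a meiotic recombination factor and no subunit. It was counted with the 40 but is described apart.

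The RNA samples were of 3 brain regions (cerebral cortex, hippocampus, brainstem), taken from 129SV males that were wild type or knockout for Nrf2 (gene symbol Nfe2l2), with no treatment named. Each of the 6 groups, 3 regions by 2 genotypes, held 3 Agilent 1-colour arrays, numbered 1 to 3 for each genotype in every region. The age of the mice and how the knockout allele was made are not given in the sources used here. Levels are the log2 intensity of a probe minus the 75th percentile of its array, so a level of 0 lies at that percentile, and values for a group are listed in the order of the numbers 1, 2 and 3. Levels of different probes were not compared with each other. A gene was called when its p-value from limma, adjusted by Benjamini-Hochberg over all genes tested, was under 0.05. The value after ± is the standard error from limma, or an SD where so marked.

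The proteasome degrades proteins tagged with ubiquitin. Its core is a barrel of outer alpha rings and inner beta rings, in which Psmb6, Psmb7 and Psmb5 carry the caspase-like, trypsin-like and chymotrypsin-like cleavage sites. Interferon-gamma induces Psmb9, Psmb10 and Psmb8, which take the places of Psmb6, Psmb7 and Psmb5 and yield peptides suited to MHC class I. The cap binds ubiquitin chains and unfolds substrates with a ring of Psmc ATPases in its base, while its lid removes ubiquitin. NRF2 is known to raise transcription of subunit genes under oxidative or electrophilic stress through antioxidant response elements, and the related factor NRF1 (gene Nfe2l1) restores them when the proteasome is inhibited.

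Nfe2l2 lay between 0.79 and 1.39 on the 9 wild-type arrays and between -8.39 and -3.62 on the 9 knockout arrays, without overlap, so that the scanner files followed their labels. Between 65.3% and 75.1% of the spots of an array were well above background, and 0 were saturated. Arrays of a group correlated with r between 0.979 and 0.996 over the genes and transcripts tested, with 1 probe each. Markers of the labelled region were highest in that region: the summed level of the 5 cortex markers, relative to the 75th percentile of the array, was 3.21 to 3.65 in cortex and 0.73 to 2.19 elsewhere. For the 5 hippocampal markers the sum was 28.8 to 39.8 in hippocampus and 9.95 to 22.4 elsewhere, and for 4 brainstem markers 2.62 to 3.64 in brainstem and 0.01 to 0.13 elsewhere. Of the 40 proteasome genes, 39 were well above background on all 18 arrays. Psmb11 was so on 15, among them 2 of 3 wild-type and 1 of 3 knockout brainstem arrays. In tissue RNA, fewer cells of a type and less RNA per cell cannot be told apart.

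The first question was whether proteasome transcripts differed with the loss of Nrf2 in brain with no treatment named. None of the 40 genes was called between knockout and wild type in cortex, hippocampus or brainstem or in the average of the regions by limma, where 0.0309%, 0.0176%, 0.0309% and 0.0529% of all genes tested were called. At an unadjusted p under 0.05 the count was 0 of 40 in each region and 2 of 40, Psma8 and Psmb9, in the average, where 6.95% of all genes tested passed; in the 3 regions 2.18%, 1.33% and 2.95% of all genes did. The differences were small and of both signs. Their median over the 40 genes was -0.03 in cortex, 0.05 in hippocampus and 0.00 in brainstem on the log2 scale, beside 0.00, 0.02 and 0.00 over all genes tested.

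For the 31 constitutive core and cap subunits, differences ran from -0.22 to 0.17 in cortex, from -0.06 to 0.16 in hippocampus and from -0.24 to 0.18 in brainstem. The 95% confidence intervals of these genes all lay within -0.47 to 0.47 in cortex, -0.31 to 0.41 in hippocampus and -0.50 to 0.48 in brainstem. The core median was 0.06 and the cap median -0.05 in cortex, but without knockout cortex array 1 both were -0.01. In hippocampus they were 0.07 and 0.01, and in brainstem 0.02 and -0.04.

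**Figure D1:**
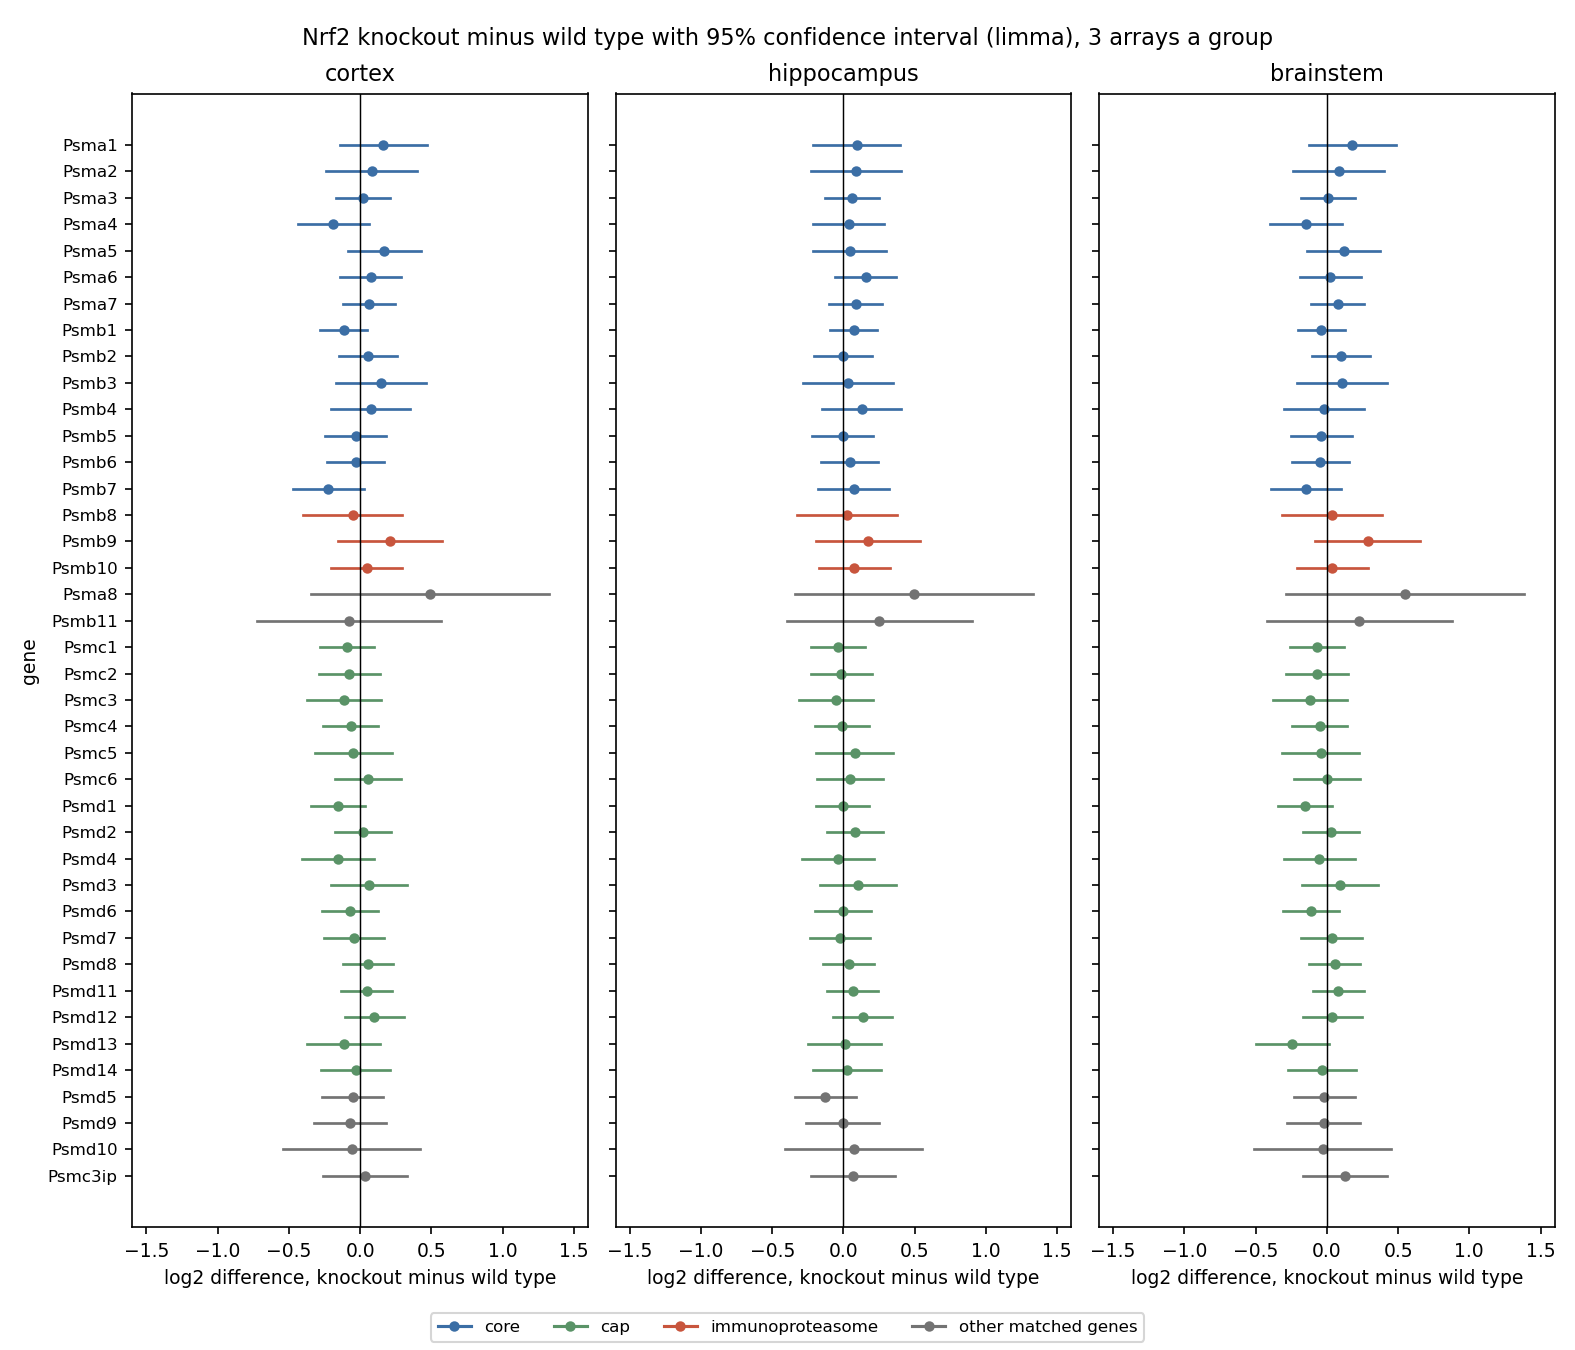
Log2 difference between Nrf2 knockout and wild type for the 40 genes in cortex, hippocampus and brainstem, as points with 95% confidence intervals from limma over 3 arrays a group, coloured by core, cap, immunoproteasome and other matched genes. Every interval spans 0, and the widest belong to Psma8, Psmb11 and Psmd10.

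The groups did not overlap for 2 of 40 genes in cortex, 0 in hippocampus and 3 in brainstem, against 6.07%, 7.75% and 6.58% of all genes tested. In cortex, Psma5 of the alpha ring stood at 5.05, 5.04 and 5.0 in wild type and 5.45, 5.06 and 5.09 in knockout, where array 1 was the high one. Psmb1, a structural beta subunit, stood at 3.40, 3.39 and 3.36 and 3.16, 3.34 and 3.30, a difference of -0.12 ± 0.08 (adjusted p = 0.9999, limma).

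In brainstem, Psma4 of the alpha ring read 2.29, 2.29 and 2.21 in wild type and 2.20, 2.21 and 1.95 in knockout. Psmd1, the large scaffold subunit of the cap base, read 2.87, 2.85 and 2.83 and 2.71, 2.82 and 2.56. Psmd13 of the lid read 0.63, 0.59 and 0.65 and 0.45, 0.47 and 0.21, the largest shift among the core and cap genes at -0.24 ± 0.12 (adjusted p = 0.99995, limma). For all 3, knockout brainstem array 3 was the lowest and lay further from the other knockout arrays than these lay from wild type. Psmd1 was also lower in knockout cortex (-0.16 ± 0.09; arrays at 2.21, 2.19 and 2.12 against 1.85, 2.12 and 2.09) and differed by -0.01 ± 0.09 in hippocampus.

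The genes described next had the smallest p of their class in a region, and none was called. Psmb7, the trypsin-like catalytic subunit, had the smallest p of the constitutive catalytic subunits in all 3 regions: it stood at 3.21, 3.31 and 3.09 in wild-type and 2.74, 3.11 and 3.1 in knockout cortex, with knockout array 1 the lowest, a difference of -0.22 ± 0.12. Its differences were 0.07 ± 0.12 in hippocampus and -0.15 ± 0.12 in brainstem, of opposite sign. Psmd12 of the lid differed by 0.10 ± 0.10 in cortex and 0.13 ± 0.10 in hippocampus, and Psmd9, an assembly chaperone, by -0.07 ± 0.12 in cortex, where it read -0.35, -0.56 and -0.39 in wild type and -0.51, -0.45 and -0.56 in knockout.

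In cortex, Psma4 read 1.90, 2.02 and 1.70 in wild type and 1.44, 1.84 and 1.77 in knockout (-0.19 ± 0.12). The base ATPase Psmc1 read 4.68, 4.57 and 4.64 and 4.45, 4.56 and 4.61 (-0.09 ± 0.09). In both genes knockout array 1 was the lowest, and the genotypes overlapped. In brainstem, the structural subunit Psmb2 read 0.00, 0.22 and 0.18 in wild type and 0.18, 0.23 and 0.29 in knockout (0.10 ± 0.09). The base ATPase Psmc3 read 2.89, 2.77 and 2.77 and 2.88, 2.74 and 2.45 (-0.12 ± 0.12). The ranges of the genotypes overlapped for both.

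In hippocampus, Psma6 of the alpha ring read 3.66, 3.62 and 3.64 in wild type and 3.83, 3.63 and 3.92 in knockout (0.16 ± 0.10). The structural subunit Psmb4 read 5.35, 5.08 and 5.27 and 5.34, 5.20 and 5.54 (0.13 ± 0.13). The genotypes overlapped in both genes. The base ATPase Psmc5 read 3.36, 3.32 and 3.47 and 3.36, 3.48 and 3.55 (0.08 ± 0.13). The base scaffold Psmd2 read 4.06, 3.95 and 4.12 and 4.06, 4.04 and 4.27 (0.08 ± 0.09), and the assembly chaperone Psmd5 1.38, 1.44 and 1.67 and 1.28, 1.33 and 1.48 (-0.13 ± 0.10). These 3 genes overlapped as well. In the average over the regions, Psma1 (0.14 ± 0.08), Psmb3 (0.10 ± 0.09) and Psmd13 (-0.12 ± 0.07) led their classes. The adjusted p was at least 0.719 for all 40 genes in the average and over 0.99 in each region (limma).

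The proximal promoters of Psmb5, Psmb6, Psmc6, Psmd12 and Psmd9 contain letters that match the core of the antioxidant response element, the kind of element to which NRF2 binds, and 4 of them are shown because 2 encode constitutive catalytic subunits and 2 encode cap subunits that differed between regions. The sequences are from RefSeq (mouse build GRCm38.p6), read 5′ to 3′ on the strand of the gene, with the match in capitals. Psmb5 lies at chr14:54617994-54618082 on the minus strand with the match starting at -47 from the transcription start. Psmb6 is at chr11:70525308-70525396 (-9), Psmc6 at chr14:45329574-45329645 (-227) and Psmd12 at chr11:107479278-107479329 (-247), all on the plus strand. In Psmc6 and Psmd12 the match reads on the opposite strand.
Psmb5: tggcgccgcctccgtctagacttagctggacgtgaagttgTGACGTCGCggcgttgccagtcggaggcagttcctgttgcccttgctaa
Psmb6: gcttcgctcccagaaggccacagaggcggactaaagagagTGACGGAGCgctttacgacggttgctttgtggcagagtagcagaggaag
Psmc6: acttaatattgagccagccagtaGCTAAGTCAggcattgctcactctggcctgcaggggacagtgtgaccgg
Psmd12: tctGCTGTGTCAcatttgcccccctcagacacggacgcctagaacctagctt

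The motif TGACNNNGC, searched on both strands from 250 bases before to 50 after the start, was in 5 of the 35 promoters (14.3%) found for 33 of the genes, beside 12.4% of all 32851 promoters. It was in 0 of the 3 immunoproteasome promoters. Knockout minus wild type for the 5 genes with a match was, in cortex, -0.03 for Psmb5, -0.03 for Psmb6, 0.05 for Psmc6, 0.10 for Psmd12 and -0.07 for Psmd9. In brainstem the same 5 gave -0.04, -0.04, 0.00, 0.04 and -0.02, and in hippocampus -0.01, 0.04, 0.05, 0.13 and -0.01. None of these differences was called.

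The 3 immunoproteasome subunits were measured on every array, and none was called between genotypes. Psmb9, the inducible counterpart of Psmb6, stood at -0.67, -0.67 and -0.92 in cortex, -0.81, -0.76 and -1.25 in hippocampus and -0.47, -0.37 and -0.84 in brainstem in wild type. In knockout it stood at -0.44, -0.41 and -0.78 in cortex, -0.64, -0.75 and -0.91 in hippocampus and -0.11, -0.15 and -0.56 in brainstem. Array 3 was the lowest of each group, and the genotypes overlapped in all 3 regions. Compared number by number, the knockout array was higher in 9 of 9 pairs, which repeat 3 numbers over 3 regions. The difference averaged over the regions was 0.22 ± 0.10 (adjusted p = 0.72, limma). It remained uncalled with the number as a block (adjusted p = 0.226).

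Psmb8, the counterpart of Psmb5, stood at -0.40, -0.71 and -0.44 in cortex, -0.62, -0.68 and -0.99 in hippocampus and -0.49, -0.38 and -0.39 in brainstem in wild type. In knockout its levels were -0.64, -0.48 and -0.59 in cortex, -0.67, -0.55 and -0.98 in hippocampus and -0.24, -0.13 and -0.77 in brainstem. The differences were -0.05 ± 0.16, 0.03 ± 0.16 and 0.04 ± 0.16, and knockout brainstem array 3 was the lowest brainstem array. For Psmb10, the counterpart of Psmb7, the cortical difference was 0.05 ± 0.12, the hippocampal one 0.08 ± 0.12 and that of brainstem 0.04 ± 0.12. Of the catalytic subunits they replace, Psmb5 and Psmb6 were not called either, with differences of -0.03 ± 0.10, -0.01 ± 0.10 and -0.04 ± 0.10 for Psmb5 and of -0.03 ± 0.09, 0.04 ± 0.09 and -0.04 ± 0.09 for Psmb6.

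Psma8, an alpha-ring subunit known from testis, had the largest differences of the 40 genes, 0.49 ± 0.39 in cortex, 0.50 ± 0.39 in hippocampus and 0.55 ± 0.39 in brainstem. It is named here because of these values. Its wild-type levels were -3.20, -2.27 and -3.29 in cortex, -3.48, -2.64 and -3.43 in hippocampus and -2.65, -2.0 and -2.98 in brainstem, and its knockout levels -2.05, -2.10 and -3.13 in cortex, -2.39, -2.36 and -3.30 in hippocampus and -1.82, -1.71 and -2.45 in brainstem. In every region the same arrays were low, wild-type numbers 1 and 3 and knockout number 3, and the other 3 were high, so the genotypes overlapped. The difference averaged over the regions was 0.51 ± 0.23 (adjusted p = 0.719, limma; 0.291 with the number as a block), and the knockout array was higher in 9 of 9 pairs. Psma8 and Psmb9 were the only genes of the 40 with 1 sign in all 9 pairs. These pairs repeat 3 numbers over 3 regions, and in both genes arrays of a number deviated alike across regions. They are thus not 9 independent comparisons, and the averaged differences, which treat the arrays as independent, have the same limit.

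No gene of the 40 was called for a difference of the knockout effect between regions, where 0% of all genes tested were called (limma); at an unadjusted p under 0.05 the count was also 0 of 40 for each pair of regions, and 0.834% to 0.98% of all genes passed.

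The sum of squares of each gene over the 18 arrays was divided among region, genotype, number within genotype and the rest, as a description. Region held the largest share for 28 genes, the rest for 8, number for 4 and genotype for 0. The median shares were 61.9% for region, 2.84% for genotype and 9.57% for number. Genotype had the fewest degrees of freedom of these parts and the rest the most, and the shares were not adjusted for this. Their ranking is thus not on equal terms. For this split alone, a number was treated as shared by the regions of a genotype, which the labels do not state. The shares were not computed for all genes tested. Whether these counts and medians differ from those of other genes is therefore not known. Genotype held at most 21.3%, for Psma7. For Psma8 the number held 54.0% and the rest 1.76%. Psmd10, the chaperone also called gankyrin, had a number share of 58.9%. It stood at -0.82, -0.96 and -0.38 in cortex, -0.70, -0.58 and -0.42 in hippocampus and -0.61, -0.58 and 0.11 in brainstem in wild type and at -1.11, -0.83 and -0.40 in cortex, -0.59, -0.61 and -0.29 in hippocampus and -0.51, -0.56 and -0.09 in brainstem in knockout, with number 3 the highest in each group. Psmd14, the lid enzyme that cuts ubiquitin off substrates, had a number share of 53.9%, and Psmd9 46.4%. In cortex and brainstem, number 3 lay on another array slide than numbers 1 and 2, so number and slide were partly confounded.

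**Figure D2:**
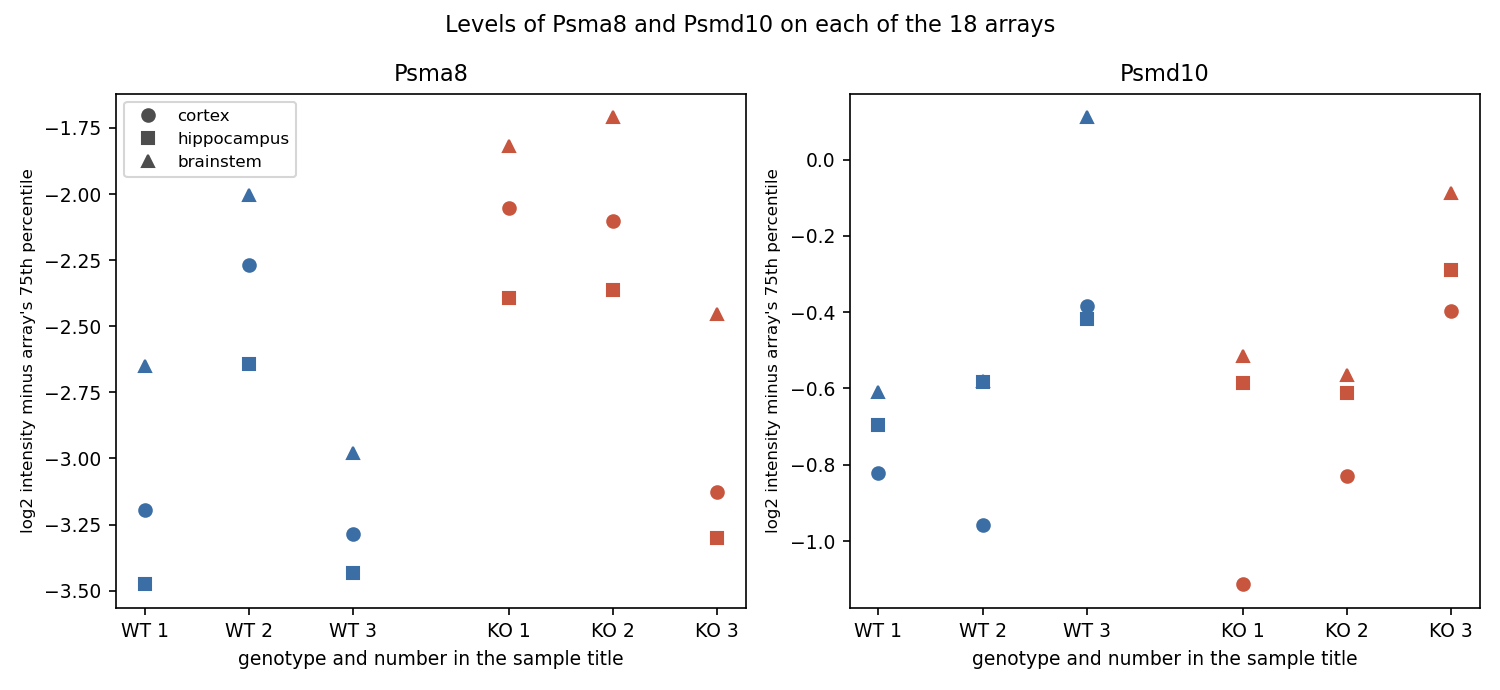
Levels of Psma8 and Psmd10 (log2 intensity minus the 75th percentile of the array) on each of the 18 arrays, ordered by genotype and number, with a symbol for each region. For Psma8, wild-type numbers 1 and 3 and knockout number 3 were low in all 3 regions, and for Psmd10 number 3 was high in both genotypes.

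The second question was how the subunits differed between brain regions, which was tested separately in each genotype, on different arrays. Psmb10 was the clearest difference between hippocampus and cortex. It stood at 4.51, 4.62 and 4.51 in cortex, 3.84, 3.92 and 4.0 in hippocampus and 4.36, 4.61 and 4.28 in brainstem in wild type and at 4.62, 4.76 and 4.40 in cortex, 3.93, 4.12 and 3.94 in hippocampus and 4.31, 4.58 and 4.47 in brainstem in knockout. All 6 hippocampal arrays lay below all 12 others. The hippocampus was lower than cortex by 0.63 ± 0.12 in wild type (1.55-fold, adjusted p = 0.00161) and by 0.60 ± 0.12 in knockout (1.51-fold, adjusted p = 0.00247), and brainstem exceeded hippocampus by 0.50 ± 0.12 and 0.46 ± 0.12 (adjusted p = 0.00301 and 0.00549, limma). Brainstem and cortex differed by -0.13 ± 0.12 and -0.14 ± 0.12 (adjusted p = 0.42 and 0.397). On slide 2, which held arrays of both regions, brainstem was above hippocampus by 0.44 in wild type and 0.54 in knockout.

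Psmb7, the constitutive subunit that Psmb10 replaces, had another order. Its levels were 3.21, 3.31 and 3.09 in cortex, 2.98, 3.09 and 2.99 in hippocampus and 3.45, 3.64 and 3.48 in brainstem in wild type and 2.74, 3.11 and 3.1 in cortex, 3.0, 3.14 and 3.14 in hippocampus and 3.37, 3.55 and 3.21 in brainstem in knockout, with brainstem highest on average. Psmb10 minus Psmb7, set only against the same difference in other groups, was 1.34 ± 0.06 (SD, n = 3) in wild-type cortex, 0.90 ± 0.10 in hippocampus and 0.89 ± 0.09 in brainstem. In knockout it was 1.61 ± 0.29, 0.90 ± 0.09 and 1.07 ± 0.16. Every cortex array was thus above every hippocampal and brainstem array. Psmb9 minus Psmb6 ranged from -5.87 to -4.97 and Psmb8 minus Psmb5 from -5.02 to -4.18 over the 18 arrays, and for both the regions overlapped.

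Psmb9 and Psmb8 were also lowest in hippocampus on average, but less clearly. Brainstem minus hippocampus was 0.38 ± 0.17 in wild type (adjusted p = 0.0913) and 0.49 ± 0.17 in knockout (adjusted p = 0.0329, limma) for Psmb9. The knockout value fell to 0.08 (adjusted p = 0.724) with the slide as a fixed block, and the call was lost in 8 of 17 alternatives. On slide 2 alone Psmb9 differed by -0.03 in wild type and 0.07 in knockout. For Psmb8 the differences were 0.34 ± 0.16 and 0.35 ± 0.16 (adjusted p = 0.109 and 0.0999); without knockout brainstem array 3 the knockout difference was 0.55 (adjusted p = 0.00785, limma), and with the slide as a fixed block the differences were 0.05 and 0.07. A second Psmb8 probe gave 0.63 and 0.62 and was called in both genotypes (adjusted p = 0.0303 and 0.0337, limma over all probes kept).

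**Figure D3:**
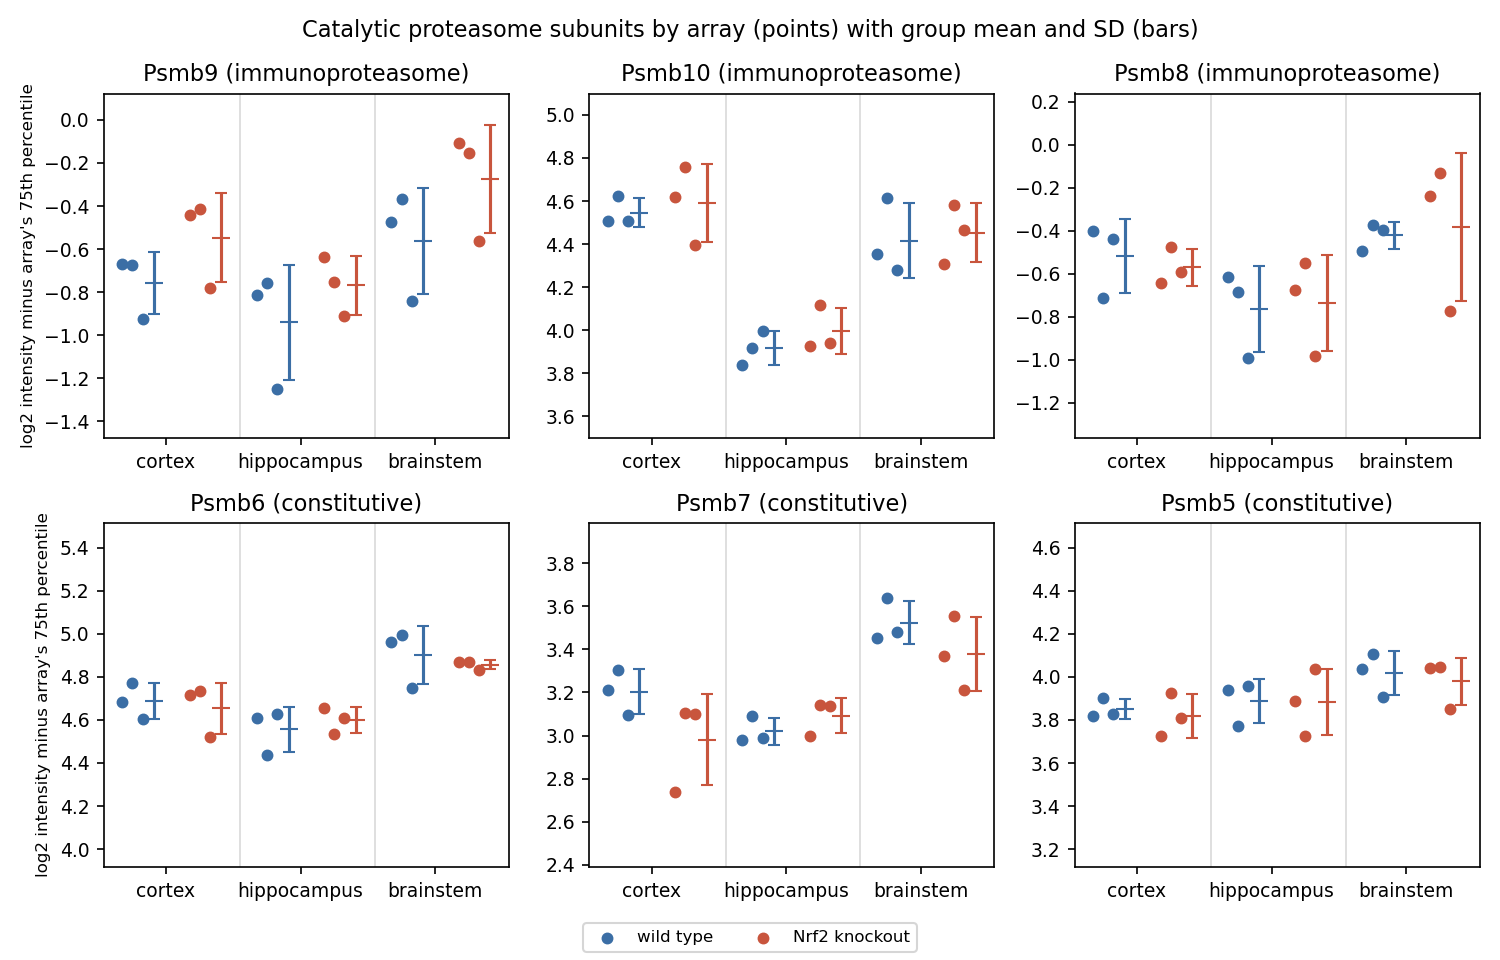
Levels of the immunoproteasome subunits Psmb9, Psmb10 and Psmb8 (upper row) and of their constitutive counterparts Psmb6, Psmb7 and Psmb5 (lower row), as log2 intensity minus the 75th percentile of the array. Points are the 3 arrays of a group and bars the mean with SD. All 6 hippocampal arrays lie below the others for Psmb10, and brainstem has the highest means for Psmb7.

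Beyond Psmb10, hippocampus and cortex differed in few proteasome genes. Of the 40, 1 was called in wild type and 4 in knockout, while 17.2% and 16.6% of all genes tested were called. By direction, 0 and 3 of the 40 were higher in hippocampus (all genes 6.78% and 7.17%) and 1 and 1 lower (all genes 10.4% and 9.44%). In knockout, hippocampus was higher for Psmd1 (by 0.33 ± 0.09, adjusted p = 0.0194), Psma3 of the alpha ring (by 0.29 ± 0.09, adjusted p = 0.0379) and Psmd6 of the lid (by 0.28 ± 0.09, adjusted p = 0.0492). The same 3 differed by 0.18 ± 0.09, 0.25 ± 0.09 and 0.22 ± 0.09 in wild type, where none was called. The median of the 40 genes was -0.06 in wild type and turned to 0.04 with quantile normalization, and it was -0.01 in knockout and turned to 0.09.

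In brainstem, many constitutive subunits were higher. Against cortex, 16 genes were called in wild type and 14 in knockout, where 35.8% and 35.6% of all genes tested were called, so the share of the 40 called was near that of all genes. No slide held cortex together with another region, so a difference from cortex and one between slides cannot be told apart; with the slide as a random block, 14 and 13 genes were called. By direction, 14 and 13 of the 40 were higher, beside 19.1% and 18.9% of all genes. Against hippocampus, 19 and 17 were called (all genes 41.5% and 40.6%), of which 17 and 15 were higher (all genes 23% and 21.7%). These 2 regions shared slide 2, and with the slide as a fixed block 12 and 10 were called. The only genes called lower in brainstem were Psmb11 and Psmc3ip, 2 and 1 against cortex (all genes 16.6% and 16.7%) and 2 and 2 against hippocampus (all genes 18.5% and 18.9%). No core or cap subunit was called lower in any of the 4 contrasts. The median difference of the 40 genes was 0.19 and 0.20 against cortex and 0.27 and 0.23 against hippocampus, and that of all genes between 0.00 and 0.03.

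Of the 14 core subunits, 5 were called higher than cortex in each genotype, with medians over the core of 0.20 in wild type and 0.19 in knockout. Of the 17 cap subunits, 8 and 7 were, with medians of 0.33 and 0.30. Against hippocampus, 5 and 3 core subunits and 10 and 9 cap subunits were called. Of all genes, 19.1% and 18.9% were called higher than cortex and 23% and 21.7% higher than hippocampus. The 3 of 14 core subunits called against hippocampus in knockout were thus near the share of all genes. The difference between core and cap was not tested. Averaged over both genotypes, the level was highest in brainstem for 11 of the 14 core and 15 of the 17 cap subunits. How many of all genes tested were highest in brainstem was not computed. In all 4 brainstem contrasts, which share the brainstem arrays within a genotype, 2 core subunits were called (Psma6 and Psmb1) and 6 of the cap (Psmc1, Psmc2, Psmc6, Psmd1, Psmd4 and Psmd12), together with the chaperone Psmd5 and, lower, Psmb11. The share of all genes called in all 4 contrasts was not computed, so this count is a description of single genes.

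Among the core and cap subunits, each by its chosen probe, Psmd1 showed the largest difference from cortex. Its levels were 2.21, 2.19 and 2.12 in cortex, 2.34, 2.38 and 2.33 in hippocampus and 2.87, 2.85 and 2.83 in brainstem in wild type and 1.85, 2.12 and 2.09 in cortex, 2.35, 2.32 and 2.37 in hippocampus and 2.71, 2.82 and 2.56 in brainstem in knockout. Brainstem arrays lay above all others, and cortex arrays were the lowest. The difference from cortex was 0.68 ± 0.09 in wild type (1.6-fold, adjusted p = 2.8e-05) and 0.68 ± 0.09 in knockout (adjusted p = 2.75e-05, limma), and from hippocampus 0.50 ± 0.09 and 0.35 ± 0.09.

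Psmd4, the ubiquitin receptor of the base, read 3.27, 3.29 and 3.07 in cortex, 3.11, 2.94 and 3.23 in hippocampus and 3.94, 3.68 and 3.64 in brainstem in wild type and 2.90, 3.18 and 3.07 in cortex, 3.12, 2.99 and 3.05 in hippocampus and 3.86, 3.66 and 3.57 in brainstem in knockout. Its cortex and hippocampal arrays intermingled below those of brainstem. Brainstem was higher than hippocampus by 0.66 ± 0.12 (1.58-fold, adjusted p = 0.000391) and 0.64 ± 0.12 (adjusted p = 0.000482, limma).

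Psmd12, a scaffold subunit of the lid whose promoter is shown above, stood at 3.97, 4.0 and 4.08 in cortex, 3.92, 3.84 and 4.02 in hippocampus and 4.63, 4.62 and 4.56 in brainstem in wild type. In knockout it stood at 4.27, 4.02 and 4.04 in cortex, 4.10, 3.98 and 4.11 in hippocampus and 4.53, 4.59 and 4.81 in brainstem. Its brainstem arrays lay above all others, by 0.59 ± 0.10 and 0.53 ± 0.10 against cortex and 0.68 ± 0.10 and 0.58 ± 0.10 against hippocampus (adjusted p = 5.2e-05 and 0.000214, limma). Of 2 further Psmd12 probes, 1 gave 0.68 and 0.47 against hippocampus, both called, and the other 0.16 and 0.05, neither called.

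All 6 base ATPases had positive differences in all 4 contrasts, and Psmc1, Psmc2 and Psmc6 were called in each. Against hippocampus they were higher by 0.55 ± 0.09 and 0.52 ± 0.09 for Psmc1, 0.40 ± 0.10 and 0.34 ± 0.10 for Psmc2 and 0.48 ± 0.11 and 0.43 ± 0.11 for Psmc6. Psmc5 differed by 0.64 ± 0.13 and 0.52 ± 0.13 from hippocampus, called in both, but by 0.33 ± 0.13 and 0.33 ± 0.13 from cortex, where it missed the threshold (adjusted p = 0.0581 and 0.0533, limma). A second Psmc5 probe was called against cortex in both genotypes, by 0.61 and 0.72 (adjusted p = 0.0429 and 0.0192, limma). Psmc3 was called in none of the 4. In the lid, besides Psmd12, Psmd6 was called against cortex (0.42 ± 0.09 and 0.38 ± 0.09) and Psmd8 against hippocampus (0.23 ± 0.08 and 0.24 ± 0.08), each in both genotypes. Psmd3, Psmd11 and Psmd14 were called in none by the chosen probe, nor was Psmd2 of the base. A second Psmd14 probe was called against cortex, by 0.48 and 0.41 (adjusted p = 0.0217 and 0.0474, limma).

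In the core, Psmb1 had the smallest adjusted p-values. It stood at 3.40, 3.39 and 3.36 in cortex, 3.36, 3.25 and 3.29 in hippocampus and 3.85, 3.90 and 3.81 in brainstem in wild type and at 3.16, 3.34 and 3.30 in cortex, 3.34, 3.33 and 3.45 in hippocampus and 3.88, 3.83 and 3.74 in brainstem in knockout, with brainstem above all other arrays. The difference was 0.47 ± 0.08 and 0.54 ± 0.08 against cortex (adjusted p = 0.000232 and 6.44e-05) and 0.56 ± 0.08 and 0.44 ± 0.08 against hippocampus (adjusted p = 4.12e-05 and 0.00032, limma). Psma6 of the alpha ring was higher by 0.47 ± 0.10 and 0.42 ± 0.10 against cortex and 0.53 ± 0.10 and 0.40 ± 0.10 against hippocampus. Psma3 and Psma4 were called against cortex in both genotypes, by 0.30 ± 0.09 and 0.28 ± 0.09 and by 0.39 ± 0.12 and 0.43 ± 0.12. Their neighbours in the alpha ring Psma1, Psma2, Psma5 and Psma7, and Psmb2, Psmb3 and Psmb4 in the beta ring, were called in none of the 4. For Psma7 the 4 differences ran from -0.02 to 0.05 with a standard error of 0.09.

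Of the constitutive catalytic subunits, Psmb6 stood at 4.68, 4.77 and 4.6 in cortex, 4.61, 4.44 and 4.63 in hippocampus and 4.96, 4.99 and 4.75 in brainstem in wild type and at 4.71, 4.73 and 4.52 in cortex, 4.66, 4.53 and 4.61 in hippocampus and 4.87, 4.87 and 4.83 in brainstem in knockout. It was called against hippocampus in both genotypes (0.34 ± 0.09 and 0.26 ± 0.09, adjusted p = 0.00823 and 0.0401, limma), but with the slide as a fixed block it was called in neither (0.20 and 0.11). The knockout call was lost in 12 of 17 alternatives. Psmb7 was called against cortex in both genotypes (0.32 ± 0.12 and 0.40 ± 0.12), but the wild-type call was lost in 9 of 16 alternatives, 5 of them without a single array (wild-type cortex 1 or 3, or any wild-type brainstem array), with an adjusted p of up to 0.152, and the knockout call in 3 of 16 (up to 0.161), among them those without knockout cortex array 1 or brainstem array 2. It was also called against hippocampus in wild type (0.51 ± 0.12). Psmb5, with levels of 3.82, 3.90 and 3.83 in cortex, 3.94, 3.77 and 3.96 in hippocampus and 4.04, 4.11 and 3.91 in brainstem in wild type and 3.72, 3.92 and 3.81 in cortex, 3.89, 3.73 and 4.04 in hippocampus and 4.04, 4.04 and 3.85 in brainstem in knockout, was called in no contrast.

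**Figure D4:**
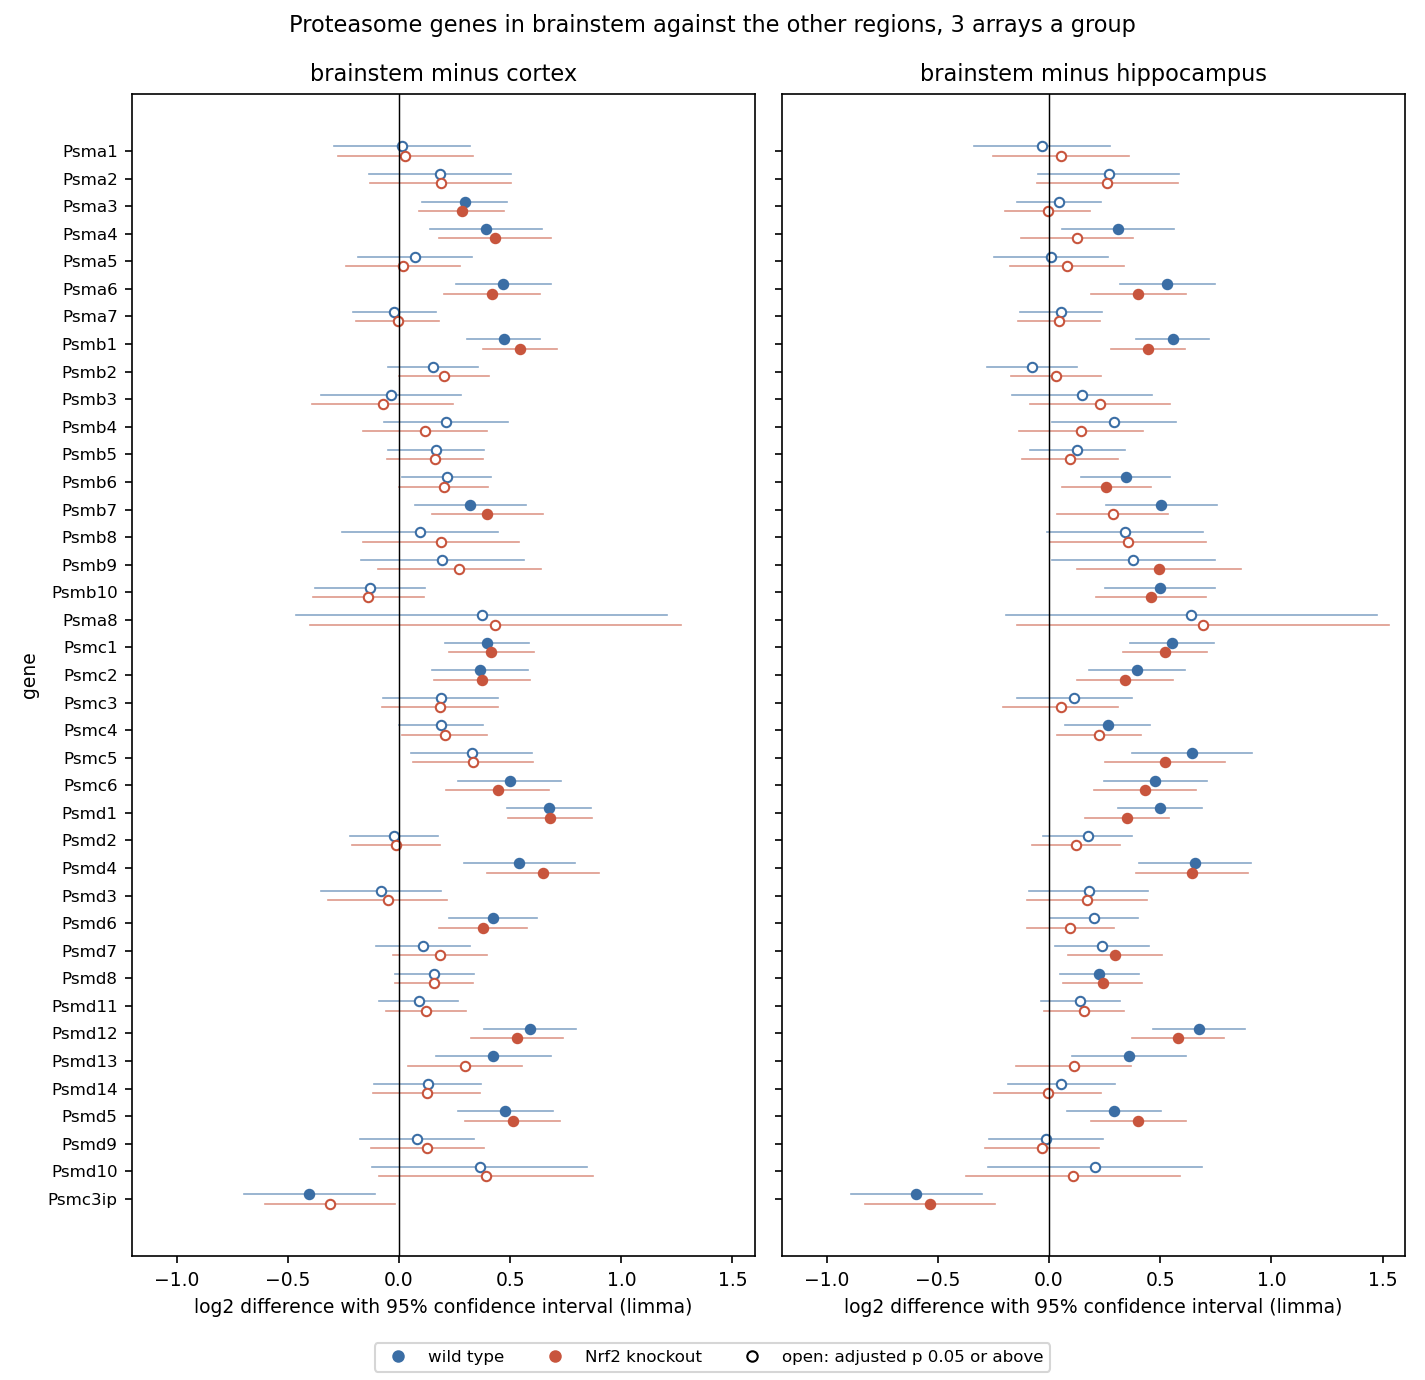
Log2 difference of brainstem from cortex (left) and from hippocampus (right) for 39 genes with 95% confidence intervals (limma, 3 arrays a group), wild type in blue and knockout in red; filled points passed an adjusted p of 0.05. Psmb11, not above background on all brainstem arrays, is left out. Filled core and cap points all lie to the right of 0, and Psmc3ip is the only gene with filled points to the left.

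The assembly chaperone Psmd5 was higher in brainstem in all 4 contrasts, by 0.48 ± 0.10 and 0.51 ± 0.10 against cortex and 0.29 ± 0.10 and 0.40 ± 0.10 against hippocampus, whereas Psmd9 and Psmd10 were called in none. Psmc3ip was lower in brainstem than in hippocampus by 0.60 ± 0.14 in wild type and 0.54 ± 0.14 in knockout (adjusted p = 0.00275 and 0.00606, limma). Psmb11, the catalytic subunit of the thymic proteasome, had brainstem levels of -6.82, -6.42 and -6.45 in wild type and -6.02, -6.14 and -6.84 in knockout, on arrays that were in part not well above background. It stood between -5.15 and -4.00 on the 12 cortex and hippocampal arrays. It passed the filter on dim probes only through cortex and hippocampus, where it was high and so had to differ; its lower level in brainstem is given as a description, with no fold. Without Psmb11 the counts of genes called were 15 and 13 against cortex and 18 and 16 against hippocampus.

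Of the genes called against cortex, 14 were called in both genotypes, which is 87.5% of those called in wild type and 100% of those called in knockout (all genes 87.7% and 88.1%). Against hippocampus, 15 were called in both, 78.9% and 88.2% (all genes 84.9% and 86.9%). The shares of the proteasome genes were thus near those of all genes. A further 12 probes of 11 of the genes were measured; 10 or 11 of these 12 had the sign of the chosen probe in the brainstem contrasts, and 0 were called in the opposite direction to a called first probe. On slide 2, the only one that held brainstem and hippocampal arrays, all 19 genes called in wild type and all 17 called in knockout had the sign of the full comparison. It held 1 array of each region per genotype, and these arrays were part of the full comparison that gave the calls. The agreement was thus in part set in advance and is no separate support.

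The regions also differed in cell type markers. All 10 oligodendrocyte markers were called higher in brainstem than in cortex in both genotypes (all genes 19.1% and 18.9%). Their summed level relative to the 75th percentile was 339 to 469 in brainstem and 146 to 259 in the other regions. The astrocyte sum over 8 markers was 315 to 393 in brainstem and 205 to 299 elsewhere, the microglial sum over 12 was 37.3 to 44.6 against 44.4 to 65.1, and the neuronal sum over 8 was 190 to 220 in all regions. The part of these markers in the higher subunit levels was not tested. Between hippocampus and cortex, 0 of 12 microglial markers in wild type and 1 in knockout were called (all genes 17.2% and 16.6%). The sum over 4 leukocyte markers was 0.28 to 1.75 over all arrays.

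Other genes of the pathway were read from the same fit. Between genotypes, Nfe2l2 was the only gene called in the lists of proteasome activators and assembly factors (15 genes measured), regulators (8), ubiquitin and its activation (14), peptide loading and MHC class I (9) and interferon response (16). Nfe2l1, which encodes the factor that restores proteasome genes after inhibition, was lower in hippocampus than in cortex by 0.42 ± 0.13 in wild type and 0.45 ± 0.13 in knockout (adjusted p = 0.0413 and 0.0279), and brainstem exceeded hippocampus by 0.39 ± 0.13 and 0.52 ± 0.13 (limma). Between brainstem and cortex it was not called. Maff and Bach1, which encode a small MAF partner and a repressor at antioxidant response elements, were higher in brainstem in all 4 contrasts, by 0.81 and 0.83 and by 0.71 and 0.59 against cortex. They are single genes of the 8 regulators, for which no count is given. The mean level over the 8, these included, was 0.27 in wild-type cortex, 0.25 in wild-type hippocampus and 0.58 in wild-type brainstem.

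Of the 15 activators and assembly factors, 3 were called higher in brainstem than in hippocampus in wild type and 4 in knockout, and 0 lower, shares near the 23% and 21.7% of all genes called higher. They included Uchl5, the deubiquitinase bound to the cap (0.51 ± 0.10 and 0.51 ± 0.10), and Psmg3, a chaperone of alpha-ring assembly (0.51 ± 0.12 and 0.51 ± 0.12). Psme1, a subunit of the interferon-inducible activator, was called in wild type (0.25 ± 0.09), and Pomp, which matures the core, in knockout (0.31 ± 0.11). Against cortex, 0 and 2 of the 15 were called (all genes 35.8% and 35.6%). Of the 14 genes of the ubiquitin list, 4 and 3 were called higher than hippocampus, again near the share of all genes, and 0 lower, among them the activating enzymes Uba1 (0.57 ± 0.10 and 0.37 ± 0.10) and Uba6 (0.55 ± 0.14 and 0.66 ± 0.14).

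Interferon-induced genes were read beside Psmb10. Of the 16 interferon genes, 5 were called lower in hippocampus than in cortex in wild type and 4 in knockout (all genes 10.4% and 9.44%), and 0 higher; the medians of the list were -0.23 and -0.33. They included Igtp (-0.81 ± 0.11 and -0.82 ± 0.11), Oas1a (-0.70 ± 0.17 and -0.81 ± 0.17) and Ifit3 (-0.56 ± 0.17 and -0.51 ± 0.17). Against hippocampus, brainstem was called higher for 8 and 11 of the 16 (all genes 23% and 21.7%), and lower for 0. In the peptide-loading list, Tapbp, which bridges MHC class I to the peptide transporter, was lower in hippocampus than in cortex by 0.39 ± 0.10 and 0.32 ± 0.10, and brainstem exceeded hippocampus by 0.63 ± 0.10 and 0.62 ± 0.10. H2-D1, an MHC class I heavy chain, was higher in brainstem than in hippocampus by 0.72 ± 0.14 and 0.82 ± 0.14. Tapbp and H2-D1 are single genes of the 9 measured in this list, for which no count is given. The mean level over the 9 in wild type and knockout was -0.41 and -0.35 in cortex, -0.53 and -0.51 in hippocampus and -0.18 and -0.12 in brainstem. Brainstem differed from cortex in these lists as well, with 6 of 16 interferon genes higher and 1, Irf8, lower in each genotype. Of all genes, 19.1% and 18.9% were higher and 16.6% and 16.7% lower. Psmb10 was not called between brainstem and cortex. Whether its levels are tied to those of the interferon genes was not tested.

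In the same promoter windows, the core of the interferon-stimulated response element was in 3 of the 35 (8.57%; Psmb3, Psmd4 and Psmd9) and in 3.44% of all promoters. The NF-kappaB core was in 18 (51.4%), Psmb9 among them, and in 50.8% of all. Both strands were searched.

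Single arrays deviated from their group mean in some proteasome genes, and the shares over all genes are given beside theirs. On knockout cortex array 1 the SD of the deviations was 0.18 over the 40 genes and 0.32 over all genes. On knockout brainstem array 3 it was 0.21 and 0.43. On both arrays the proteasome genes thus deviated less than all genes did. On knockout cortex array 1, 5 genes lay more than 0.2 above the group mean (Psma1, Psma2, Psma5, Psmb3 and Psma8) and 6 below it (Psma4, Psmb7, Psmb11, Psmc3, Psmd13 and Psmd10), where 26.7% and 18.2% of all genes did. Knockout brainstem array 3 had 7 above, including Psma1, Psma2, Psmb3 and Psmb4, and 5 below, including Psmb8, Psmb9 and Psmc3 (all genes 25.8% and 27.7%). On knockout hippocampal array 3, 34 of the 40 genes were above the group mean, and the median deviation of the 40 was 0.08 (all genes 49.7% above). Psma1 was high on each of these arrays: it stood at 4.16, 3.68 and 3.79 in knockout cortex, 3.80, 3.75 and 4.01 in knockout hippocampus and 3.68, 3.80 and 4.23 in knockout brainstem, and between 3.67 and 3.82 on the 9 wild-type arrays.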

How the data were processed

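The authors deposited Agilent Feature Extraction scanner files with an intensity for each spot, background-subtracted by that software per the file headers, which name build mm9. Control spots and outlier-flagged spots were left out, log2 intensities of a probe were averaged, and the 75th percentile over all probes, an intensity of 636 to 1102, was subtracted on the log2 scale. A probe was kept where some group had it well above background in each of its 3 arrays (30058 of 41174), with 1 probe a gene, and symbols came from RefSeq through accessions (26690 probes with 1 symbol). limma 3.58.1 in R 4.3.3 fitted the 6 groups together (12 residual degrees of freedom), with Benjamini-Hochberg adjustment over 22663 genes and transcripts.

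Same-numbered knockout and wild-type arrays of a region deviated together in 9 of 9 pairs (r from 0.239 to 0.622). The numbers were therefore taken as pairing the genotypes in an alternative fit with a block, which changed no call between the genotypes. The main fit held no block. Its standard errors, intervals and p-values between genotypes leave this pairing out, except where a block is named. Same-numbered arrays of a region also lay on the same slide throughout, so deviation shared by number was not separated from that of the slide. Between regions only 14 of 18 same-numbered pairs deviated together (r over 0.1), so the numbers were not taken as pairing the regions. The labels do not say whether same-numbered arrays share an animal or a day, and p-values measure only the spread between these samples. In the deposited table of normalized intensities, 7 of 18 columns matched an array of another name, so it served only as an alternative. The normexp alternative used the median spot signal.

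Genes with values in every array were the catalytic and immunoproteasome subunits, the gene with the smallest p of each class in each knockout comparison and the called genes with the 3 largest regional differences in wild type; Psma5, Psma8, Psmd10, Psmd14 and the other genes outside this rule were chosen after their values were seen. The genes and lists were chosen with earlier results of these data known.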

Additional observations from a re-analysis of the deposited data

How the results depend on the processing

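No gene of the 40 was called between genotypes, or for a difference of the knockout effect between regions, in any alternative run, and no called value changed sign. With the number within the region as a replicate block the count stayed at 0. With genotype and number as a block, the region counts were 2 and 3 (hippocampus against cortex, wild type and knockout), 19 and 18 (brainstem against cortex) and 20 and 19 (brainstem against hippocampus). This block added Psmc5, Psma8, Psmd10, Psmb9 and Psmb7 in 1 or more of the contrasts and lost Psmd8 (brainstem against hippocampus in wild type, adjusted p = 0.0559) and Psmd6 (hippocampus against cortex in knockout, adjusted p = 0.0545; limma). Hippocampus against cortex in wild type gave 2 genes with quantile normalization and with trended robust moderation, and 0 with the authors' table, whose hippocampal columns did not match the arrays they name. In knockout the count of 4 became 1 with normexp, 0 with the authors' table, 2 with no filter on dim probes, 1 with only the groups compared and 2 with the slide as a random block. It was 1 to 4 when 1 array was left out, being 1 without knockout cortex array 1 or knockout hippocampal arrays 1 or 3, and 2 without knockout cortex array 2. In knockout, fitting only the groups compared left 5 genes for brainstem against cortex and 7 against hippocampus. The slide as a fixed block, chosen after seeing the data, left 12 genes for brainstem against hippocampus in wild type and 10 in knockout. When 1 array was left out, brainstem against cortex gave 12 to 15 genes in wild type and 12 to 17 in knockout, and brainstem against hippocampus 14 to 20 and 12 to 19. The causes were not tested. With 3 arrays a group, the number of arrays limits the precision.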
